A study of Rattus norvegicus with 6 samples.

Results

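The genes described here, 10 in all, handle the lipid of broken-down myelin: Apoe, Apod, Abca1, Abcg1, Lpl, Lipa, Trem2, Plin2, Fabp5 and Cd36. They were chosen by symbol as genes of this pathway, with earlier results of these data known. Each symbol matched 1 gene of the 30957 in the mRNA table. All 10 were among the 15195 genes with enough counts to be tested. The left sciatic nerves of 1-month-old Sprague-Dawley rats were sequenced in 3 groups of 2 rats: control, D4, taken 4 days after nerve crush, and D7, taken 7 days after. In the D4 and D7 groups the middle of the nerve was clamped with hemostatic forceps under chloral hydrate anesthesia. The methods describe the control rats as operated on in the same way without the clamp, whereas the sample labels call them normal. Each rat gave 1 library of total RNA from sciatic nerve tissue, named a or b, and a letter shared between groups does not mean a shared rat. The abstract calls the injured samples lesional tissue, and the methods do not state which segment of the nerve was taken.

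Crush cuts axons, and the Schwann cells and macrophages of the distal nerve then take up and digest the myelin sheaths, which are rich in cholesterol, phospholipid and galactolipid. Receptors such as Trem2 and Cd36 bind lipid at the cell surface, lysosomal enzymes such as Lipa free cholesterol and fatty acids, droplet proteins such as Plin2 coat the stored esters, and the transporters Abca1 and Abcg1 pass cholesterol to apolipoproteins such as Apoe. Released lipid can be reused by Schwann cells when they wrap regrowing axons.

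The libraries held between 18727255 and 25350886 fragments counted on genes. The nerve's identity was checked with 6 markers of myelinating Schwann cells (Mbp, Pmp22, Prx, Mag, Mal and Pllp), whose summed level was 43131 and 28645 CPM (counts scaled to the library size with TMM factors) in the control libraries, 1165 and 1204 in the D4 libraries and 5936 and 3676 in the D7 libraries. The 12 macrophage markers summed to 565 and 602 CPM in the control group, 2220 and 2270 in D4 and 1587 and 1813 in D7. The 8 adipocyte markers summed to 1446 and 1721 CPM in the control group, 307 and 603 in D4, and 66.0 and 703 in D7 libraries a and b, so the latter pair stood far apart. Skeletal muscle markers were low throughout, with sums between 4.43 and 84.9 CPM. These are bulk libraries, in which fewer cells of a type and less RNA per cell cannot be told apart.

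The comparison of each injured group with the control group asked which of these genes had changed 4 and 7 days after crush. On D4, 6 of the 10 genes rose (Apoe, Apod, Abca1, Lipa, Trem2 and Plin2), where 11.2% of all genes tested were called higher. On D7, 5 rose (the same without Plin2), where 9.83% of all genes were called higher. A gene was called at a fold change of at least 2 and a p-value, adjusted by the Benjamini-Hochberg method over all genes tested, under 0.05. The adjusted p-values given here come from the quasi-likelihood test of edgeR unless another tool is named. By this test 0 of the 10 were called lower at either day, against 10.7% of all genes on D4 and 9.02% on D7. At an unadjusted p under 0.05, 1 of them (Cd36) was lower at each day. DESeq2 also called 0 of them lower, and edgeR's exact test called Lpl and Cd36 lower on D4 and Cd36 on D7. The median log2 fold change of the 10 genes was 1.49 on D4 and 1.41 on D7, beside -0.04 and 0.01 for all genes tested. Because the 10 genes were chosen with earlier results of these data known, these contrasts with all genes are a description only.

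**Figure D1:**
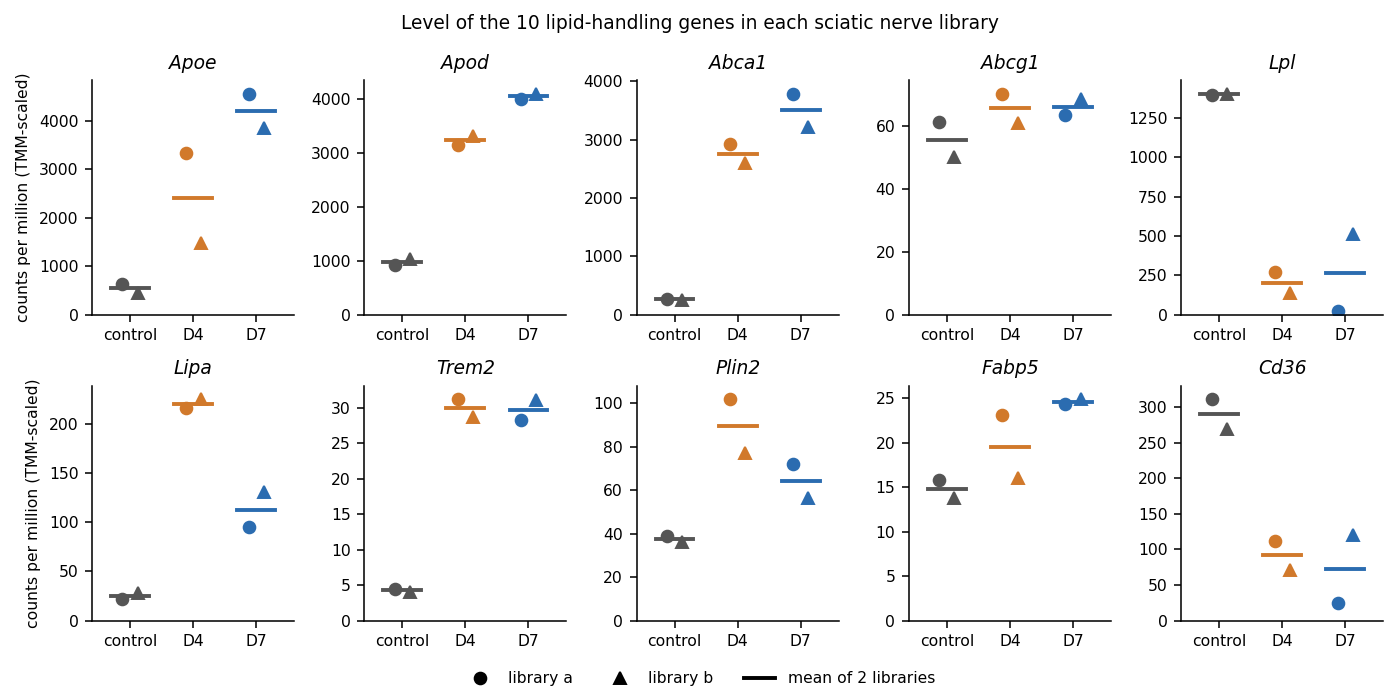
Level of each of the 10 genes in every library, in TMM-scaled CPM on an axis that starts at 0. Circles are libraries a, triangles libraries b and lines the mean of the 2 libraries. Both injured groups sit above the control group for Apoe, Apod, Abca1, Lipa, Trem2, Plin2 and Fabp5 and below it for Lpl and Cd36, and the D7 libraries of Lpl lie at 25.6 and 510 CPM.

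The direct comparison of D7 with D4 asked whether the level changed further between these days. It called 0 of the 10 genes, where 1.68% of all genes were called higher and 0.494% lower. At an unadjusted p under 0.05, 2 of the 10 were higher on D7 (Apod and Abca1) and 2 lower (Lipa and Plin2). DESeq2 called Lipa lower, and edgeR's exact test called 0. The median log2 difference of the 10 genes between the days was 0.17.

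Promoter sequences are given first for 4 of the 6 genes that rose on D4, shown because each holds a match to a motif marked here. They were picked for those matches and do not stand for all genes that rose. RefSeq entries on the GRCr8 build were found for 7 of the 10 genes, all but Abcg1, Lpl and Fabp5. Each sequence is the 250 bases before the annotated start, read 5' to 3' on the gene's strand. Capitals mark a match to the E-box CACGTG or the TATA box TATAAA, and in Trem2 the letters TGACCT, which are the nuclear receptor half-site AGGTCA on the other strand. The stretches are chr5:72596474-72596723 on the minus strand for Abca1, chr11:82935970-82936219 on the plus strand for Apod, chr9:20151780-20152029 on the minus strand for Trem2 and chr5:106229019-106229268 on the minus strand for the first of 2 annotated starts of Plin2.
Abca1: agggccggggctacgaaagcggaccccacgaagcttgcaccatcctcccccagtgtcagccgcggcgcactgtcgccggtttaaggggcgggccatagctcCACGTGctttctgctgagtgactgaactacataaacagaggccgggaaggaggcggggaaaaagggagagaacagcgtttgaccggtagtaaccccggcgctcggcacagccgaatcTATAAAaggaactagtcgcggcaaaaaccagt
Apod: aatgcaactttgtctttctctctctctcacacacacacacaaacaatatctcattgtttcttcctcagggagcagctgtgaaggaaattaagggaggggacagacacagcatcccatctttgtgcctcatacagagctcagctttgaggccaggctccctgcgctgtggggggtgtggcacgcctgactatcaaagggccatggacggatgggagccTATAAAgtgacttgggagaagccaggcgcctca
Trem2: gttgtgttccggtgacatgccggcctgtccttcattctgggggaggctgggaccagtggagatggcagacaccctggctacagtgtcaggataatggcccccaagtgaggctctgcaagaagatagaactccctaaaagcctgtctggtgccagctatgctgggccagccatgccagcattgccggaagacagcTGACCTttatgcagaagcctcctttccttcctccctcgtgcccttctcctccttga
Plin2: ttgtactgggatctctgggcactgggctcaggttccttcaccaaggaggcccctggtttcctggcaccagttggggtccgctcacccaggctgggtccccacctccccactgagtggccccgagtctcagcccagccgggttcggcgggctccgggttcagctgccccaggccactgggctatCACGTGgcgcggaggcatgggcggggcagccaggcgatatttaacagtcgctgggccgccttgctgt

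In Abca1 the TATA box began 32 bases before the start and the E-box 149 bases before it. The TATA box of Apod began 33 bases before the start, the half-site of Trem2 56 bases and the E-box of Plin2 67 bases. Searched on both strands, TATAAA occurred in 12.9% of all 33469 promoters of the same length, CACGTG in 5.59% and AGGTCA in 14.1%. The GC box GGGCGG, found in 30.5% of promoters and left in lower case here, began 165 bases before the Abca1 start and 49 bases before that of Plin2. The AP-1 site TGAGTCA, in 4.05% of promoters, matched no entry of the 7 genes. None of the marked matches overlapped another, and each is a match of letters only. Of the other genes that rose, Lipa matched none of the 5 motifs at its 1 start, and Apoe, with 3 annotated starts, matched only the GC box, 41 and 21 bases before the second start and 220 and 200 bases before the third, whose windows overlap. The second start of Plin2 matched no motif. Cd36, which did not pass the test, held TATAAA on the other strand, 175 bases before its start.

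Among the transporters, Abca1, which moves cholesterol and phospholipid out of the cell onto lipid-poor apolipoproteins, had the largest rise of the 10 genes at both days. Abca1 (ENSRNOG00000018126, chr5:69857771-69983015 in Rnor_6.0) stood at 271 and 254 CPM in the control libraries, 2927 and 2591 in D4 and 3788 and 3217 in D7. Every injured library was far above both control libraries. The log2 fold change of Abca1 was 3.39 (SE 0.14, adjusted p = 0.000119) on D4, a 10.5-fold rise with a 95% interval from 8.25-fold to 13.4-fold. On D7 it was 3.74 (SE 0.15, adjusted p = 0.000174), or 13.3-fold, a change reached by 1.31% of the genes tested. Between D4 and D7 the log2 difference of Abca1 was 0.34 with an interval from 0.03 to 0.66, and its adjusted p-value of 0.176 did not pass.

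Abcg1, the related transporter that loads cholesterol onto mature lipoprotein particles, did not pass the test at either day. Abcg1 (ENSRNOG00000001158, chr20:9743269-9840489) stood at 61.2 and 50.1 CPM in the control libraries, 70.4 and 60.9 in D4 and 63.7 and 68.7 in D7. The control and D4 libraries overlapped. The fold change of Abcg1 was 1.18 on D4, with an interval from 0.939 to 1.48, and 1.19 on D7, from 0.947 to 1.49 (adjusted p = 0.197 and 0.190). These intervals do not reach 2-fold in either direction. The Abca1 level was 1.99 and 2.28 times that of Abcg1 in the control libraries in FPKM, the authors' fragments per kilobase per 1e6 fragments, 18.7 and 19.1 times in D4, and 26.7 and 21.0 times in D7.

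The other genes of sterol efflux, its acceptors and its sensing were read from a list of 16, of which 15 were in the table and all 15 were tested. On D4, 3 rose and 2 fell, and on D7, 3 rose and 1 fell, with a median log2 fold change of -0.03 and -0.07. Over all genes tested, 11.2% and 9.83% were called higher on D4 and D7, and 10.7% and 9.02% lower. The rises at both days were the apolipoproteins Apoc1 and Apoc4 and the phospholipid transfer protein Pltp. Apoc1 held 0 and 0 counts in the control libraries, 25 and 29 in D4 and 92 and 68 in D7, at least 6.25-fold higher on D4 and at least 22.9-fold higher on D7 when the control libraries are set to 3 counts each. Apoc4 held 0 and 0, 16 and 5, and 62 and 45 counts, at least 2.51-fold and 15.3-fold higher by the same bound. The falls were those of the cholesterol-esterifying enzyme Lcat (log2 fold change -1.33 on D4, adjusted p = 0.00138), the transporter Abca2 (-1.24, adjusted p = 0.00188) and, on D7, the cholesterol hydroxylase Ch25h (-1.53, adjusted p = 0.0189). Of the sterol-sensing receptors that control Abca1 transcription, Nr1h2 had log2 fold changes of -0.23 and -0.07 and Nr1h3 of -0.86 and -0.54 on D4 and D7, all under 2-fold. Nr1h3 passed the adjusted p alone on D4 (0.00988) and not on D7 (0.0538), and Nr1h2 passed it at neither day (0.160 and 0.651). Their partner Rxra lay at 0.03 and 0.14.

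Both apolipoproteins among the 10 genes rose at both days. Apoe, the main carrier of cholesterol between cells of the nervous system, stood at 629 and 455 CPM in the control libraries, 3329 and 1479 in D4, and 4564 and 3844 in D7. The D4 libraries differed from each other 2.25-fold, and both were above the control libraries. The log2 fold change of Apoe (ENSRNOG00000018454, chr1:80612895-80617057) was 2.15 (SE 0.39, adjusted p = 0.00673) on D4 and 2.96 (SE 0.41, adjusted p = 0.00309) on D7, or 4.43-fold and 7.76-fold. Without D4 library a, which leaves 1 rat on D4, the D4 value of Apoe was 1.45. The rise from D4 to D7, 0.81 with an interval from -0.12 to 1.73, did not pass (adjusted p = 0.254).

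Apod, a lipocalin that binds small hydrophobic molecules, was the most abundant of the 10 genes per length in every group. Apod (ENSRNOG00000048273, chr11:72705129-72726301) stood at 921 and 1042 CPM in the control libraries, 3156 and 3316 in D4, and 4010 and 4105 in D7, and the 3 groups did not overlap. Its log2 fold change was 1.72 (SE 0.12, adjusted p = 0.000228) on D4 and 2.05 (SE 0.12, adjusted p = 0.000332) on D7, or 3.30-fold and 4.13-fold. The D7 value exceeded that of D4 by 0.33 on the log2 scale (interval 0.05 to 0.60, adjusted p = 0.150). Ranked by mean FPKM among all genes listed, Apod went from place 26 in the control group to place 5 in D4 and D7, and Apoe from place 102 to places 11 and 7. The Apoe level was 0.422 and 0.270 times that of Apod in the control libraries, 0.652 and 0.276 times in D4 and 0.703 and 0.579 times in D7.

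**Figure D2:**
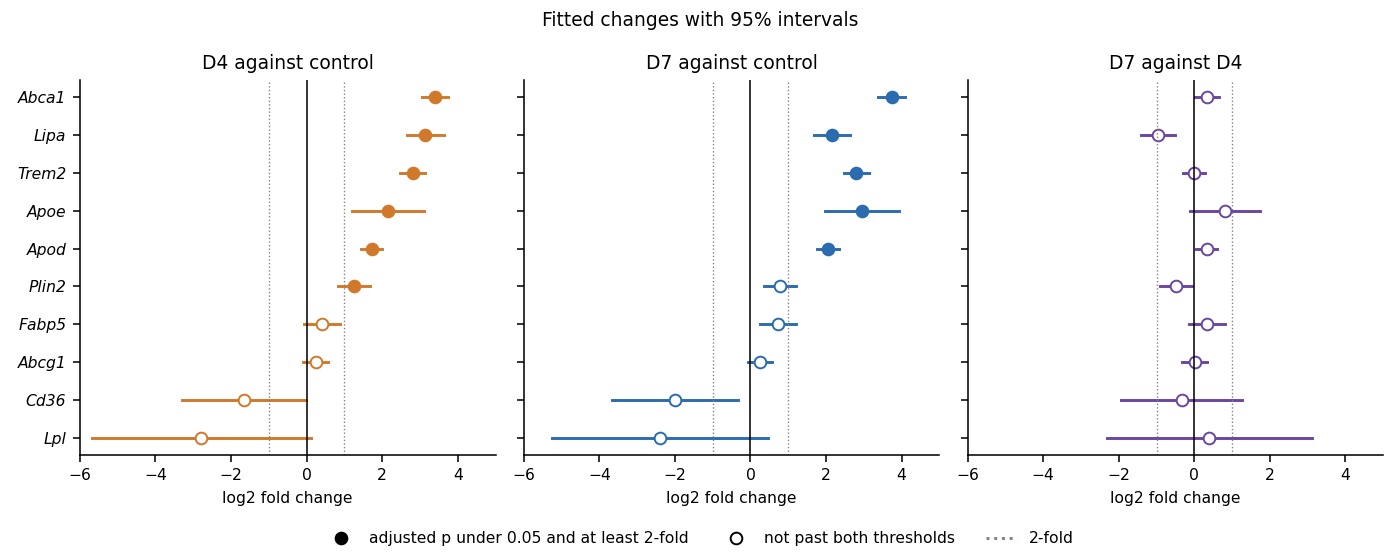
Log2 fold changes of the 10 genes (points) with 95% intervals (bars) in 3 panels, 1 for each injured group against the control group and 1 for D7 against D4. Filled points passed an adjusted p of 0.05 and a 2-fold change, and dotted lines mark 2-fold. Abca1 lies highest in both panels against the control group and Apoe in that of D7 against D4, Abcg1 lies near 0, and the intervals of Lpl and Cd36 are the widest.

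Of the uptake receptors, Trem2 rose and Cd36 did not pass the test. Trem2, a lipid-binding receptor of macrophages and microglia, was the least abundant of the 10 genes per length in the control group, with 87 and 67 counts. The D4 libraries held 760 and 778 counts and the D7 libraries 603 and 630, or 4.48 and 4.04 CPM, 31.2 and 28.7 CPM, and 28.3 and 31.2 CPM in turn. The groups of injured libraries overlapped each other and lay far above the control group. Trem2 (ENSRNOG00000013578, chr9:14611561-14618013) rose 7.02-fold on D4 (log2 fold change 2.81, SE 0.13, adjusted p = 0.000124) and 6.96-fold on D7 (2.80, SE 0.13, adjusted p = 0.000245). The difference between the days was -0.01, with an interval from -0.30 to 0.28.

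Macrophage markers moved in the same direction as Trem2: 12 of 12 rose on D4 and 10 of 12 on D7, all but Cd163 and Cd14, and none was at 0 in any library. The shares of all genes tested that were called higher were 11.2% and 9.83%. Trem2 amounted to 0.744% and 0.715% of the summed CPM of these markers in the control libraries, 1.37% and 1.29% in D4, and 1.78% and 1.72% in D7. Abundant markers such as Lyz2 weigh most in that sum. Taken singly, Cd68 rose 7.55-fold on D4 and 7.22-fold on D7 and Tyrobp 7.02-fold and 6.67-fold, near the rise of Trem2. Every other marker changed by a smaller fold. The part of macrophage number in the rises of Trem2, Lipa, Abca1 and Apoe was not tested.

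**Figure D3:**
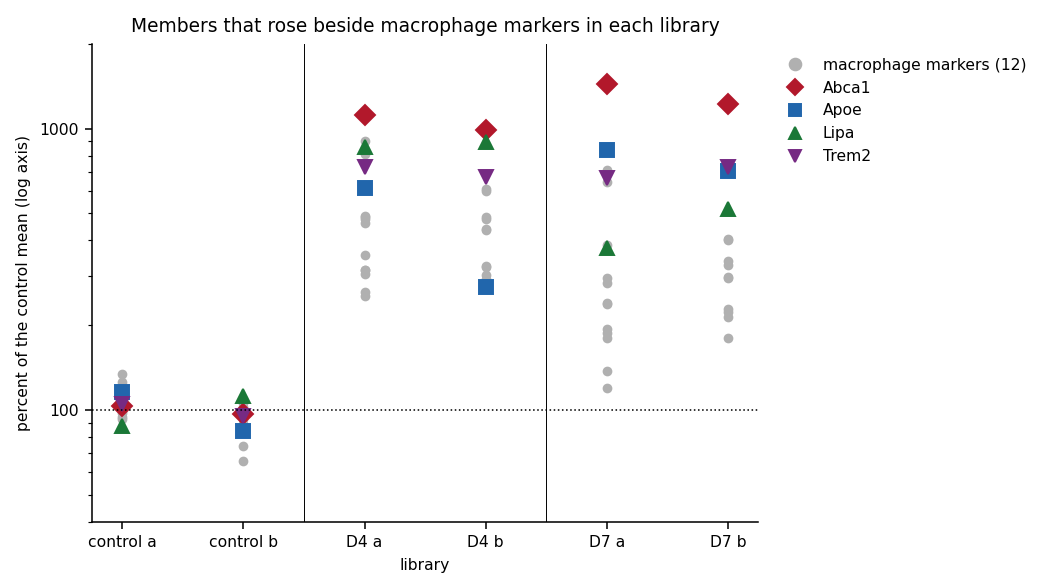
CPM of Abca1, Apoe, Lipa and Trem2 and of 12 macrophage markers (grey) in each library, as a percent of the control mean on a log axis. Abca1 lies above every macrophage marker in the 4 injured libraries, and Trem2 at 665% and 732% in the D7 libraries lies close to the highest of them.

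The uptake partners were read from a list of 10 genes, of which 9 were tested and Marco held 0 counts in every library. On D4, 6 rose and 1 fell, and on D7, 5 rose, with median log2 fold changes of 1.75 and 1.19. Among all genes tested, the shares called higher were 11.2% and 9.83%, and those called lower 10.7% and 9.02%. Olr1, a receptor for oxidized lipoprotein, held 4 and 6 counts in the control libraries, 257 and 381 in D4 and 193 and 219 in D7 (log2 fold change 5.44 and 5.13, adjusted p = 0.000197 and 0.000399). Cd68, a lysosomal glycoprotein of phagocytes, rose by 2.92 and 2.85 on the log2 scale. The adaptor Tyrobp, through which Trem2 signals, rose by 2.81 and 2.74, and the kinase Syk downstream of it by 2.01 and 1.96. Cd68 and Tyrobp also belong to the macrophage markers. The scavenger receptor Msr1 rose by 1.72 and 1.10 on the log2 scale. In the other direction, the VLDL receptor Vldlr, which binds Apoe, fell by 1.04 on D4 (adjusted p = 0.00803).

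Cd36, a scavenger receptor that also carries fatty acids into cells, stood at 311 and 270 CPM in the control libraries, 112 and 71.8 in D4, and 24.5 and 121 in D7. All 4 injured libraries were below both control libraries, and the D7 libraries differed 4.95-fold. The log2 fold change of Cd36 (ENSRNOG00000040108, chr4:14001761-14249718) was -1.66 (SE 0.67, adjusted p = 0.0901) on D4 and -2.00 (SE 0.68, adjusted p = 0.0629) on D7, so neither passed. The intervals ran from -3.30 to -0.03 and from -3.66 to -0.34.

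Lpl, the lipase that releases fatty acids from circulating lipoproteins, showed the same pattern with a wider spread. Lpl (ENSRNOG00000012181, chr16:22537056-22561496) stood at 1398 and 1404 CPM in the control libraries, 271 and 135 in D4, and 25.6 and 510 in D7. All injured libraries were lower than the control libraries, and D7 library b was 19.9 times as high as D7 library a. Its log2 fold change of -2.79 on D4 (SE 1.19, adjusted p = 0.104) and -2.39 on D7 (SE 1.17, adjusted p = 0.157) did not pass. Of the 15052 genes detected in both D7 libraries, 0.286% had a ratio of library b to a as high as that of Lpl and 1.27% one as high as that of Cd36.

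Adipocyte markers moved with Lpl and Cd36 across libraries. Of the 8 markers, 0 were called on D4 and 1 on D7 (Lipe, lower). Over all genes tested, 10.7% and 9.02% were called lower. Adipoq, the adipocyte hormone adiponectin, held 10687 and 7328 counts in the control libraries, 3254 and 1729 in D4, and 49 and 3730 in D7. The droplet protein Plin1 held 6167 and 4848, 1452 and 890, and 29 and 1997. In D7 library a the adipocyte markers lay between 0.339% and 16.2% of their control mean, Lpl at 1.83% and Cd36 at 8.43%. In D7 library b they lay between 30.8% and 81.7%, Lpl at 36.4% and Cd36 at 41.7%. None of these markers was at 0 in any library. Endothelial markers summed to 933 and 1559 CPM in the control libraries, 562 and 533 in D4, and 310 and 519 in D7 libraries a and b. The part of adipocyte or endothelial RNA in the levels of Lpl and Cd36 was not tested.

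Leaving out either D7 library changed the calls of Lpl and Cd36, but left 1 rat on D7. Such a fit holds no spread between D7 rats, so only its effect sizes are given. Without D7 library b, the log2 fold changes of Lpl were -2.79 on D4 and -5.78 on D7, and those of Cd36 -1.66 and -3.57. Without D7 library a, those of Lpl were -2.75 and -1.43, and those of Cd36 -1.62 and -1.23. In a fit of the control and D4 libraries alone, both genes passed on D4 (adjusted p = 0.00301 for Lpl and 0.00423 for Cd36). The D7 libraries, which lay far apart, are not part of the spread in that fit.

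**Figure D4:**
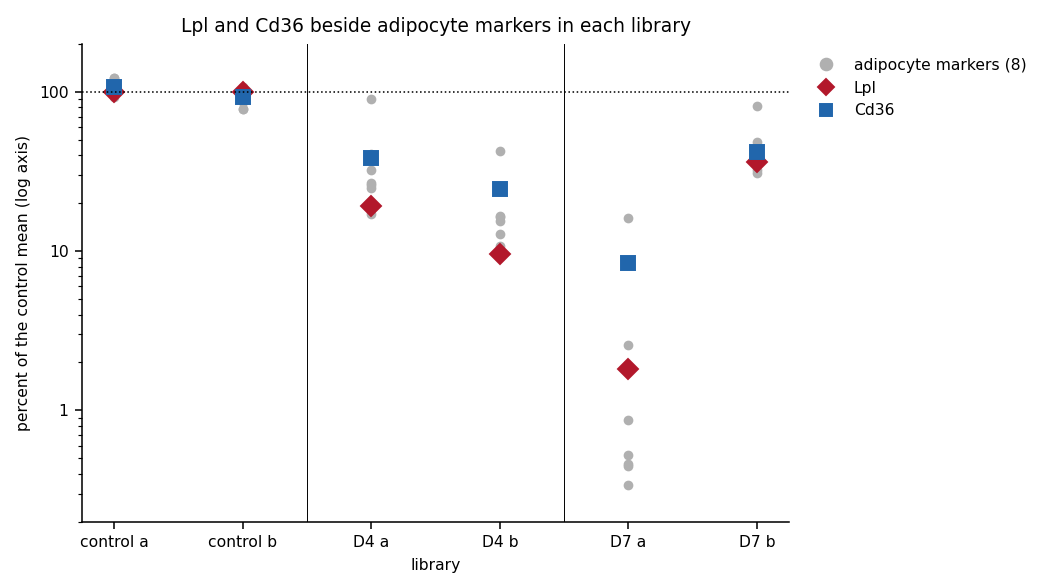
CPM of Lpl, Cd36 and 8 adipocyte markers (grey) in each library, as a percent of the control mean on a log axis. In D7 library a Lpl sits at 1.83% and Cd36 at 8.43%, and in D7 library b at 36.4% and 41.7%, each within the range of the adipocyte markers of that library.

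Of 7 genes that regulate lipoprotein lipase, 6 were tested, and Apoc2 held too few counts. On D4, 0 rose and 1 fell, and on D7, 0 were called. The shares of all genes tested that were called higher were 11.2% and 9.83%, and lower 10.7% and 9.02%. The lipase inhibitor Apoc3 fell on D4 (log2 fold change -3.73, adjusted p = 0.0356), on 52 and 34 counts in the control libraries, 2 and 7 in D4 and 1 and 21 in D7. It did not pass on D7. The endothelial anchor of the enzyme, Gpihbp1, held 362 and 184, 205 and 138, and 20 and 122 counts and did not pass. The inhibitor Angptl4 held 652 and 136 counts in the control libraries, and with that spread its log2 values of 1.08 and -0.46 did not pass. Lmf2 on D4 (0.57, adjusted p = 0.00571) and Sel1l on D7 (0.61, adjusted p = 0.0182) passed the adjusted p alone. Lmf1 passed it at neither day.

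Lipa, the lysosomal acid lipase that splits cholesteryl esters and triglycerides, rose at both days and was the only one of the 10 genes with an adjusted p-value under 0.05 between the days. Lipa (ENSRNOG00000019077, chr1:252816527-252849904) stood at 22.0 and 28.3 CPM in the control libraries, 217 and 225 in D4, and 94.8 and 131 in D7, and the 3 groups did not overlap. The rise was 8.78-fold on D4 (log2 fold change 3.13, SE 0.20, adjusted p = 0.000206) and 4.48-fold on D7 (2.16, SE 0.19, adjusted p = 0.000778). From D4 to D7 Lipa was 1.96-fold lower (log2 difference -0.97, SE 0.18, interval -1.42 to -0.52, adjusted p = 0.0451), just under the 2-fold threshold. That adjusted p-value rose to 0.244 without D4 library a, 0.242 without D4 library b and 0.165 without D7 library a.

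Of 11 other genes of lysosomal lipid breakdown, all were tested and 1 rose at each day. That is near the 11.2% and 9.83% of all genes tested that were called higher on D4 and D7. The median log2 fold changes of the list were 0.43 and 0.28. Psap, the precursor of the saposin activators, rose by 1.16 on D4 (adjusted p = 0.000623), and Hexa, which takes part in ganglioside breakdown, by 1.02 on D7 (adjusted p = 0.000676). Enzymes specific to myelin galactolipids moved under 2-fold: Galc, which cleaves galactosylceramide, had log2 fold changes of 0.82 and 0.83, and Arsa, which cleaves sulfatide, of -0.74 and -0.68. Both passed the adjusted p alone at both days (0.00173 and 0.00232 for Galc, 0.00500 and 0.00829 for Arsa). The cholesterol exporter Npc1 lay at 0.01 and -0.03 and passed it at neither day. Its partner Npc2, at 0.75 and 0.56, passed it at both (0.00449 and 0.0157). None of these 11 genes changed as much as Lipa.

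Plin2, a coat protein of lipid droplets in most cell types, rose on D4. Plin2 (ENSRNOG00000007060, chr5:104984414-105010857) stood at 39.0 and 35.9 CPM in the control libraries, 102 and 77.3 in D4, and 72.1 and 56.6 in D7, and the 3 groups did not overlap. Its rise on D4 was 2.39-fold (log2 fold change 1.25, SE 0.18, adjusted p = 0.00259). On D7 it was 1.72-fold (0.78, SE 0.18, adjusted p = 0.0178), below the fold threshold. That adjusted p-value was 0.0704 without control library b and 0.0738 without D7 library a. The D7 level against that of D4 was -0.48 on the log2 scale, with an interval from -0.90 to -0.05 (adjusted p = 0.166).

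Of 15 other genes of droplet storage and lipolysis, 14 were tested, and Pnpla2 was listed with 0 counts in every library. On D4, 1 rose and 3 fell, and on D7, 1 rose and 4 fell, with median log2 fold changes of -1.95 and -1.75. By comparison, 11.2% and 9.83% of all genes tested were called higher, and 10.7% and 9.02% lower. The gene that rose was Soat1, which esterifies cholesterol for storage, by 1.71 on D4 and 1.40 on D7 (adjusted p = 0.000206 and 0.000545), with 1377 and 1348 counts in the control libraries, 6256 and 6491 in D4 and 4462 and 3904 in D7. The triglyceride-forming enzyme Dgat2 fell by 3.02 and 2.28 (adjusted p = 0.0192 and 0.0498), the monoglyceride lipase Mgll by 2.62 and 2.56 (adjusted p = 0.000167 and 0.000344), and G0s2, an inhibitor of triglyceride lipolysis, by 2.07 and 1.55. The hormone-sensitive lipase Lipe fell on D7 by 2.21 (adjusted p = 0.045). In D7 libraries a and b, Dgat2 held 584 and 2955 counts, Lipe 298 and 1222, and G0s2 61 and 120, whereas Mgll held 1027 and 1019. Plin1, Cidec, Lipe and Pparg, which appear in these lists, also serve as adipocyte markers.

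Fabp5, a cytoplasmic carrier of fatty acids, changed by less than 2-fold. Fabp5 (ENSRNOG00000049075, chr2:93981656-93985378) stood at 15.8 and 13.7 CPM in the control libraries, 23.1 and 16.0 in D4, and 24.3 and 24.8 in D7. Every injured library was above both control libraries, D4 library b by the least. Its fold change was 1.32 on D4 (log2 0.40, SE 0.20, adjusted p = 0.143) and 1.66 on D7 (0.73, SE 0.20, adjusted p = 0.030). The D7 value passed the adjusted p alone and lost it without either control library or either D7 library (adjusted p between 0.0567 and 0.111).

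Of the 12 other fatty acid binding and activating genes, 9 were tested, and Fabp1, Fabp2 and Fabp7 held 0 counts throughout. On D4, 2 fell, and on D7, 3 fell, with median log2 fold changes of -0.98 and -0.76. The shares of all genes tested that were called lower were 10.7% and 9.02%. Pmp2, the fatty acid binding protein of compact myelin, held 58503 and 35686 counts in the control libraries, 1734 and 2234 in D4, and 9838 and 5505 in D7. It fell by 5.07 on D4 (adjusted p = 0.000215) and by 2.81 on D7 (adjusted p = 0.00129), and was 2.26 higher on D7 than on D4 (adjusted p = 0.0215). Acsl1, which activates long fatty acids, fell by 2.67 and 2.40 (adjusted p = 0.0238 and 0.0375), with 858 counts in D7 library a and 4175 in D7 library b. The fatty acid transporter Slc27a4 fell on D7 by 1.37.

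**Figure D5:**
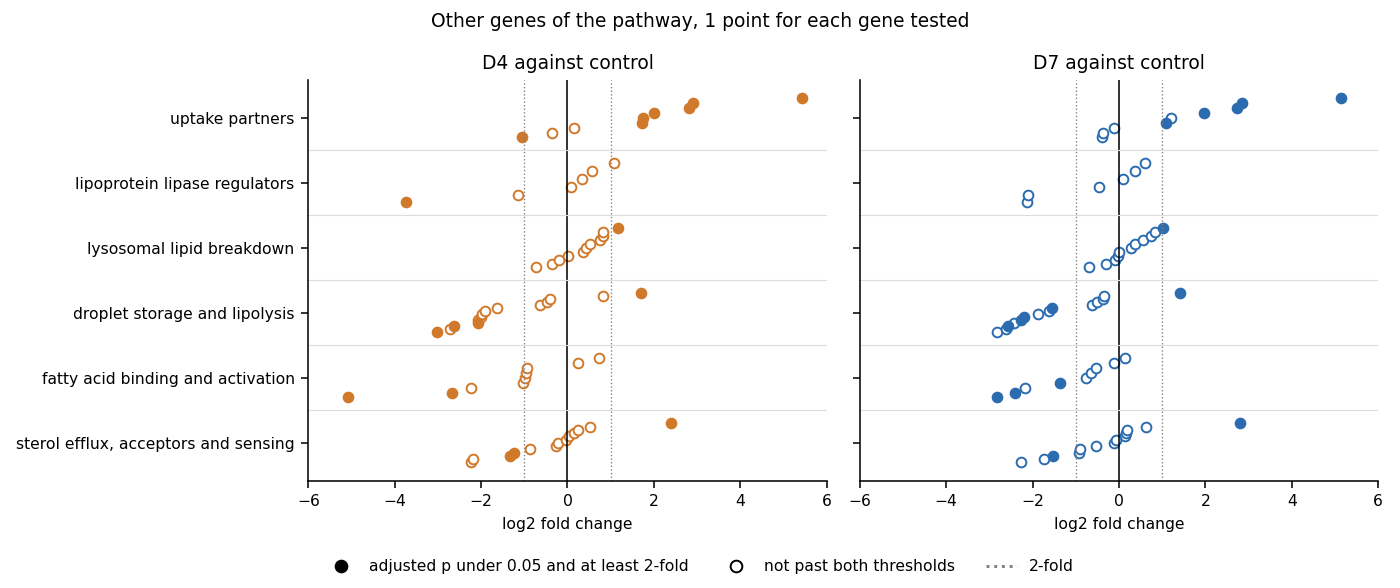
Log2 fold changes of the other pathway genes tested, 1 point a gene and 1 band a list, on D4 (left) and D7 (right), in order of change within a band. Filled points passed both thresholds, and Apoc1 and Apoc4, at 0 counts in the control group, are left out. The highest point is Olr1 at 5.44 and 5.13. The lowest on D4 is Pmp2 at -5.07, and the lowest on D7 is Plin4 at -2.83, which did not pass, beside Pmp2 at -2.81.

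Compared per length, the order of the 10 genes changed with injury. These FPKM values carry no TMM factor, so ratios of groups taken from them differ from the fitted fold changes. With TMM factors, 14 of the group means moved by at least their SD and 16 did not. That of Apod became 1021 in the control group and 4222 in D7. In the control group the mean level was 893 FPKM ± 93.4 (SD, n = 2) for Apod, followed by Lpl at 333 ± 6.92, Apoe at 304 ± 64.1, Cd36 at 23.4 ± 1.92, Abca1 at 22.2 ± 0.630, Fabp5 at 17.8 ± 1.45, Plin2 at 17.6 ± 0.726, Abcg1 at 10.5 (libraries 11.4 and 9.55), Lipa at 4.15 ± 0.798 and Trem2 at 3.22 ± 0.180. The neighbours Lpl and Apoe overlapped over their libraries, as did Cd36 and Abca1, and Fabp5 and Plin2. In D4 the order began with Apod at 3592 FPKM ± 131, Apoe at 1649 ± 895 and Abca1 at 285 ± 24.1, and ended with Abcg1 at 15.1 ± 1.52 and Cd36 at 9.01 ± 2.75. Between them lay Lpl, Plin2 and Lipa, at 58.9 ± 27.8, 51.3 ± 9.84 and 44.4 ± 1.24 with overlapping libraries, and Fabp5 and Trem2, at 28.8 ± 7.38 and 27.6 ± 1.56, also overlapping. In D7 Apod stood at 4525 ± 121, Apoe at 2895 ± 322 and Abca1 at 363 ± 38.2, each apart from the next. Lpl at 78.7 ± 101 overlapped Plin2 at 37.0 ± 5.93, which overlapped Fabp5 at 36.4 ± 0.909, and Trem2 at 27.6 ± 2.15 overlapped Lipa at 22.8 ± 5.35. Abcg1 at 15.3 ± 0.980 and Cd36 at 7.22 ± 6.81 came last again. Abca1 thus moved from the fifth place to the third, and Cd36 from the fourth to the last.

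Long noncoding RNAs (lncRNAs) lay in or within 10 kb of 5 of the 10 loci (Abca1, Abcg1, Lipa, Plin2 and Cd36). Of these 10 transcripts, 9 had enough counts to be tested, and 2 rose at each day, where 5.19% of all lncRNAs tested were called higher on D4 and 3.00% on D7. Both lay at Abca1. NONRATT023240.2 (chr5:69863617-69864001), inside the Abca1 span, held 8 and 6 counts in the control libraries, 76 and 67 in D4 and 138 and 124 in D7, a log2 fold change of 3.18 and 4.11 (adjusted p = 0.00484 and 0.00481). NONRATT023239.2 (chr5:69857734-69858452), which overlaps the end of that span, held 1 and 1, 15 and 13, and 17 and 16 counts. All injured libraries of both transcripts were above the control libraries. The summed counts of NONRATT023239.2, scaled to library size, were 12.5 times those of the control group on D4 (95% interval for counting error only, 3.16 to 108) and 15.4 times on D7 (3.95 to 133), with adjusted p-values of 0.0193 and 0.0215 among lncRNAs. Leaving out any single library ended the call of NONRATT023239.2 and kept that of NONRATT023240.2. The strand setting of the counting is not given in the sources used here, so reads of Abca1 and of these transcripts cannot be told apart. Another transcript at this locus, NONRATT022275.2, lies outside the gene and did not pass, with 1 and 7, 1 and 35, and 13 and 23 counts. NONRATT020174.2, inside the Cd36 span, held 15 and 10, 34 and 37, and 7 and 10 counts and did not pass. Against the control group, 5 of the 9 had an unadjusted p under 0.05 on D4 and 2 on D7, in either direction. Between D4 and D7, 0 of the 9 were called, 2 had an unadjusted p under 0.05, and DESeq2 called 1. The share of all lncRNAs called between these days is not given here, so these counts are a description only.

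The genes whose profile over the 6 libraries came nearest to each of the 10 were found by the distance between log2 CPM profiles, each centred on its own mean, among 7149 genes of at least 10 FPKM. Apoe was nearest to Atp1b1, a sodium pump subunit, and to Pltp (distances of 0.703 and 0.715), Apod to the complement protein C3 and the cell cycle inhibitor Cdkn1a (0.343 and 0.367), and Abca1 to 7SK and Slc22a23 (0.394 and 0.478). Lipa was nearest to Cdkn3 and LOC100359600 (0.224 and 0.339), and Trem2 to Sox2 and Arl11 (0.308 and 0.315). Plin2 was nearest to LOC100362384 and Rab13 (0.180 and 0.191), and Fabp5 to Man1a1 and Ap5z1 (0.308 and 0.310). Lpl was nearest to Rbp4 (0.398), known from adipose tissue, and then to a gene whose symbol was deposited as a date (0.617), and Cd36 to Lipe and Tusc5 (0.398 and 0.430). Those of Abcg1 were Icmt and Rpl4 (0.0604 and 0.103), whose levels also hardly varied. A small distance describes these 6 libraries only.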

How the data were processed

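The mRNA and lncRNA profiles of 6 rat sciatic nerves were analyzed. Per the labels and methods, the authors depleted ribosomal RNA, sequenced paired ends, mapped reads to Rnor_6.0 with HISAT2 2.0.4 and assembled transcripts with StringTie 1.3.0. The authors counted fragments per gene and per lncRNA transcript and deposited these counts without normalization, and the strand setting is not given in the sources used here. FPKM values were also deposited, made by the authors, and each gene's FPKM in the mRNA table follows its count, the library total and 1 length.

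Genes were filtered (filterByExpr), scaled with TMM factors and tested by edgeR 4.0.16 (R 4.3.3) with the quasi-likelihood method in 1 fit of 6 libraries, lncRNAs in a fit of their own. The p-values were adjusted by Benjamini-Hochberg over the 15195 genes, or 14077 lncRNAs, tested. SEs were the absolute log2 fold change over the square root of F. The procedure was run on simulated counts, whose spread depended on the expression level alone and which held no outlying library. That run does not bear on the calls of Lpl and Cd36. Alternatives were DESeq2 1.42.0, edgeR's exact test, other filters, no TMM factors, a replicate block, other thresholds, fits of 2 groups and leaving out each library. With 2 libraries in each group the precision is low, and fold intervals rest on the spread shared over all groups.

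The genes, pathway lists and marker lists were chosen with earlier results of these data known. Of each pathway list, the 2 largest rises and falls among called genes are named by rule (Olr1, Cd68, Vldlr, Apoc3, Psap, Soat1, Dgat2, Mgll, Pmp2, Acsl1, Apoc1, Apoc4, Ch25h and Lcat), as are the 2 nearest profiles, and others were named after their values were seen. A few list genes are not reported here, and the list counts leave them out. Motifs were searched in RefSeq promoters (GRCr8). Python 3.11.15, pandas 2.3.3, numpy 2.4.6 and matplotlib 3.10.9 were used.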

Additional observations from a re-analysis of the deposited data

Results flagged for a closer look

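Lipa, the lysosomal acid lipase, differed between the days by the direct comparison of D7 with D4 (log2 difference -0.97, edgeR quasi-likelihood test, adjusted p = 0.0451 over all genes tested). Both D7 libraries, at 94.8 and 131 CPM, were below both D4 libraries, at 217 and 225 CPM. The difference stayed negative in every alternative run, between -1.22 and -0.77, with adjusted p-values from 3.72e-05 (DESeq2) to 0.244 (without D4 library a).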

How the results depend on the processing

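The 6 members called on D4 and the 5 on D7 were also called in each alternative run, including adjusted p under 0.01. Some alternatives added members called lower. The fit of only the groups compared called Lpl (-2.74, adjusted p = 0.00301) and Cd36 (-1.61, adjusted p = 0.00423) on D4, edgeR's exact test called both on D4 and Cd36 on D7, and the fit with no low-count filter called Cd36 on D7 (-1.99, adjusted p = 0.0462). Leaving out either D7 library also added calls of Lpl and Cd36, in fits that hold 1 D7 rat and no spread between D7 rats. Between D7 and D4 the count of 0 became 1 (Lipa) by DESeq2 and 1 (Lipa) with no fold threshold, and it ranged from 0 to 3 over fits leaving out 1 library, the 3 being Lipa, Lpl and Cd36 without D7 library b. Without TMM factors the median of all genes shifted to 0.25 on D4 and 0.31 on D7, and Plin2 and Fabp5 passed 2-fold on D7 (1.07 and 1.03), which relative to that median are values under 2-fold. At 0.01 (Abcg1), 0.40 (Lpl), -0.01 (Trem2) and -0.33 (Cd36), 4 differences between the days changed sign. Abcg1 was -0.0229 by DESeq2 and -0.0008 in the fit of the 2 groups. Over fits leaving out 1 library, Abcg1 ranged from -0.088 to 0.12, Lpl from -2.99 to 1.32, Trem2 from -0.083 to 0.0485 and Cd36 from -1.91 to 0.39. The 2 lncRNA calls fell to 1 in every fit leaving out 1 library, at D4 (1 to 1) and D7 (1 to 1).

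The letters a and b name different rats, and deviations of same-letter libraries from their group means correlated by 0.01 (D4 and control), 0.19 (D7 and control) and -0.13 (D7 and D4). With the letter as a replicate block, 6 members were called on D4, 5 on D7 and 0 between the days, Lpl between the days was -0.14, and 1 lncRNA was called on D7. With the D4 letters exchanged, 0 members were called between the days and Lpl was -0.21. The cause of these shifts was not tested. Levels below a few counts, such as those of Apoc1, Apoc4 and Apoc3, limit their fold changes to bounds or wide intervals.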

Other observations

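Apoc1 and Apoc4, which rose, and Apoc2 lie beside Apoe on chromosome 1, in 1 cluster of apolipoprotein genes (Rnor_6.0). Apoc1 ends 2973 bases from Apoe, Apoc4 13322 bases and Apoc2 18758 bases. In counts, Apoc1 held 0 and 0 in the control libraries, 25 and 29 in D4 and 92 and 68 in D7, and Apoc4 held 0 and 0, 16 and 5, and 62 and 45. Apoc2 was listed with 0 counts in the control and D4 libraries and with 3 and 2 in D7. Apoe itself held 12219 and 7542, 81108 and 40025, and 97212 and 77688. Tomm40, the mitochondrial import gene 1096 bases to the other side of Apoe, held 382 and 248, 671 and 748, and 502 and 462 counts.

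Markers of other cells of the nerve moved as well. Of 8 Schwann lineage genes, 2 rose at both days (Ngfr, by 6.46 and 5.62 on the log2 scale, and Jun, by 2.40 and 2.13) and Ncam1 fell on D4. All 6 genes of myelinating Schwann cells fell on D4 and 5 fell on D7, and 4 were higher on D7 than on D4. Of 7 endothelial genes tested, 4 fell on D4 and 6 on D7. Of 8 fibroblast and perineurial genes, 1 fell on D4 and 2 on D7. Over all genes tested, 11.2% and 9.83% were called higher on D4 and D7, and 10.7% and 9.02% lower. Between D7 and D4, 1.68% were called higher.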
